A study of Mus musculus with 8 samples.

Results

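The 10 genes described here are the MHC class II genes H2-Aa, H2-Ab1, H2-Eb1, H2-Eb2, H2-DMa, H2-DMb1, H2-DMb2 and H2-Oa, the invariant chain gene Cd74 and the class II transactivator gene Ciita. They were chosen by name from the 47937 genes of the count tables, and each of the 10 was found and passed the filter on low counts in every comparison. Counts of mRNA sequencing reads per gene had been collected from bone marrow-derived dendritic cells (BMDCs), which are bone marrow cells grown with GM-CSF and were sequenced as unsorted bulk cultures. Bone marrow came from adult mice on a C57BL6/J background. 3xGrk-/- mice carried Grk3-/- together with floxed Grk2 and Grk6 alleles deleted by Vav-iCre, a Cre that is active in hematopoietic cells from their early precursors on. WT controls were Cre-negative. BMDCs were left unstimulated or were given 20 ng/ml LPS, the bacterial cell wall product sensed by TLR4, for 24 h in medium that kept GM-CSF. There were 2 libraries in each of the 4 groups, while the study's methods describe RNA isolation in technical triplicates, and any further library of a group was not analysed here. No source used here says that the libraries of a group came from separate cultures or mice, so p-values measured only the spread between these libraries, which may be technical throughout.

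MHC class II molecules are pairs of an alpha and a beta chain that carry peptides from endosomes to the cell surface, where CD4+ T cells read them. The invariant chain CD74 fills the groove of new class II molecules until endosomal proteases remove it, H2-DM then exchanges the remaining fragment for peptides, and H2-O restrains H2-DM. Their genes share a promoter module on which RFX, CREB and NF-Y proteins assemble the platform for CIITA, a coactivator that does not bind DNA itself, and mature dendritic cells are known to make less class II mRNA than immature ones.

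The 8 class II chain genes lie within 249 kb of chromosome 17 (GRCm38), whereas Cd74 and Ciita lie on chromosomes of their own, Ciita at chr16:10480059-10528418 on the plus strand. The promoters of 6 members are shown because their X and Y boxes are the shared feature by which CIITA reaches these genes. Each line gives the 150 bases before the RefSeq transcription start (GRCm38.p6, 5' to 3' on the strand of the gene). Capitals mark letters that matched the Y box core CCAAT, bound by NF-Y, or the X box patterns AGNNACNGA and ACNGATG, on either strand. The 2 X box patterns overlap each other, and CCAAT on the opposite strand reads ATTGG.
H2-Eb1 (chr17:34305717-34305866, plus strand): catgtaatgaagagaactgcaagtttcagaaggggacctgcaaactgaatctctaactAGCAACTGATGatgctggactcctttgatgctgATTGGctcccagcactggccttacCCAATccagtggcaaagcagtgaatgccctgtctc
H2-Eb2 (chr17:34325525-34325674, plus strand): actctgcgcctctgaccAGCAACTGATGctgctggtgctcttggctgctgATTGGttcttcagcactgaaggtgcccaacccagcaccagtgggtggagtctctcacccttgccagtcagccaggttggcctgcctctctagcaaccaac
H2-DMb1 (chr17:34153041-34153190, plus strand): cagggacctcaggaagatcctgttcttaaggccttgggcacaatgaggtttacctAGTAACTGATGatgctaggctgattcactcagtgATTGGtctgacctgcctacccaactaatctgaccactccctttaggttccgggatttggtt
H2-DMb2 (chr17:34145099-34145248, plus strand): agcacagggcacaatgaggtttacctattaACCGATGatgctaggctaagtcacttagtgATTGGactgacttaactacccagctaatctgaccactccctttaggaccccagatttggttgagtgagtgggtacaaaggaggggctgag
H2-Oa (chr17:34092229-34092378, plus strand): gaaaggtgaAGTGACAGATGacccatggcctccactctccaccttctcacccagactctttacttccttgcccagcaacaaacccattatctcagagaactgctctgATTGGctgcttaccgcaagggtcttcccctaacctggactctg
H2-Aa (chr17:34287824-34287973, minus strand): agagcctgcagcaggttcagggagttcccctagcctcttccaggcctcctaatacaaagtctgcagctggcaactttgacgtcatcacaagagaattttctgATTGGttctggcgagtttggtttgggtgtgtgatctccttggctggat
In H2-Eb1, H2-Eb2, H2-DMb1 and H2-DMb2 the pattern ACNGATG was followed by ATTGG after 29 or 30 bases, counted from start to start. A spacing of 25 to 35 bases in this orientation, a range set after these positions were seen, occurred in 18 of the 32851 RefSeq promoter windows of 250 bases, or 0.0548%. H2-Oa held both boxes at a wider distance, and in H2-Aa ACNGATG was found only on the opposite strand, 232 bases before the start. That match lies outside the 150 bases shown. Taken alone, CCAAT was in 33.8% of all windows, AGNNACNGA in 14.7% and ACNGATG in 8.31%, and CCAAT together with either X box pattern was in 6.91%. H2-DMa had 2 windows, of which neither held an X box pattern. The letters after the start of the second window were not found in an annotated transcript of H2-DMa. Whether either window holds the promoter used in these cells was not tested. A match is a description of letters and no evidence of binding, and an X box with other letters would be missed by these 2 patterns.

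Of the groups, WT unstimulated BMDCs held the highest level of every member. The 10 genes took 2.7% and 2.72% of all counts in the WT unstimulated libraries, 1.18% and 1.15% in 3xGrk-/- unstimulated libraries, 1.21% and 1.33% in WT LPS-stimulated libraries, and 0.999% and 0.961% in 3xGrk-/- LPS-stimulated libraries. Library totals were 4713305 to 6933358 counts, and counts of single members ranged from 4 for H2-Eb2 to 86262 for Cd74. Replicate 2 of the 3xGrk-/- LPS-stimulated group stood apart with 149727 counts on Gm42418, a gene that overlaps ribosomal RNA sequence, against 26853 in replicate 1 and 17470 to 41199 in the other groups. In the following, CPM is a count scaled to the effective size of its library, and a log2 fold change is a difference from an edgeR quasi-likelihood fit across all genes, called when its Benjamini-Hochberg adjusted p was below 0.05. Without the 3xGrk-/- replicate with high Gm42418, 7 members were lower in 3xGrk-/- than WT cells with LPS, against 8 with it, as H2-Aa had -0.18 (log2 fold change, edgeR adjusted p = 0.154). The numbers called for the LPS response of 3xGrk-/- cells (6) and for its difference from that of WT cells (9) did not change.

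**Figure D1:**
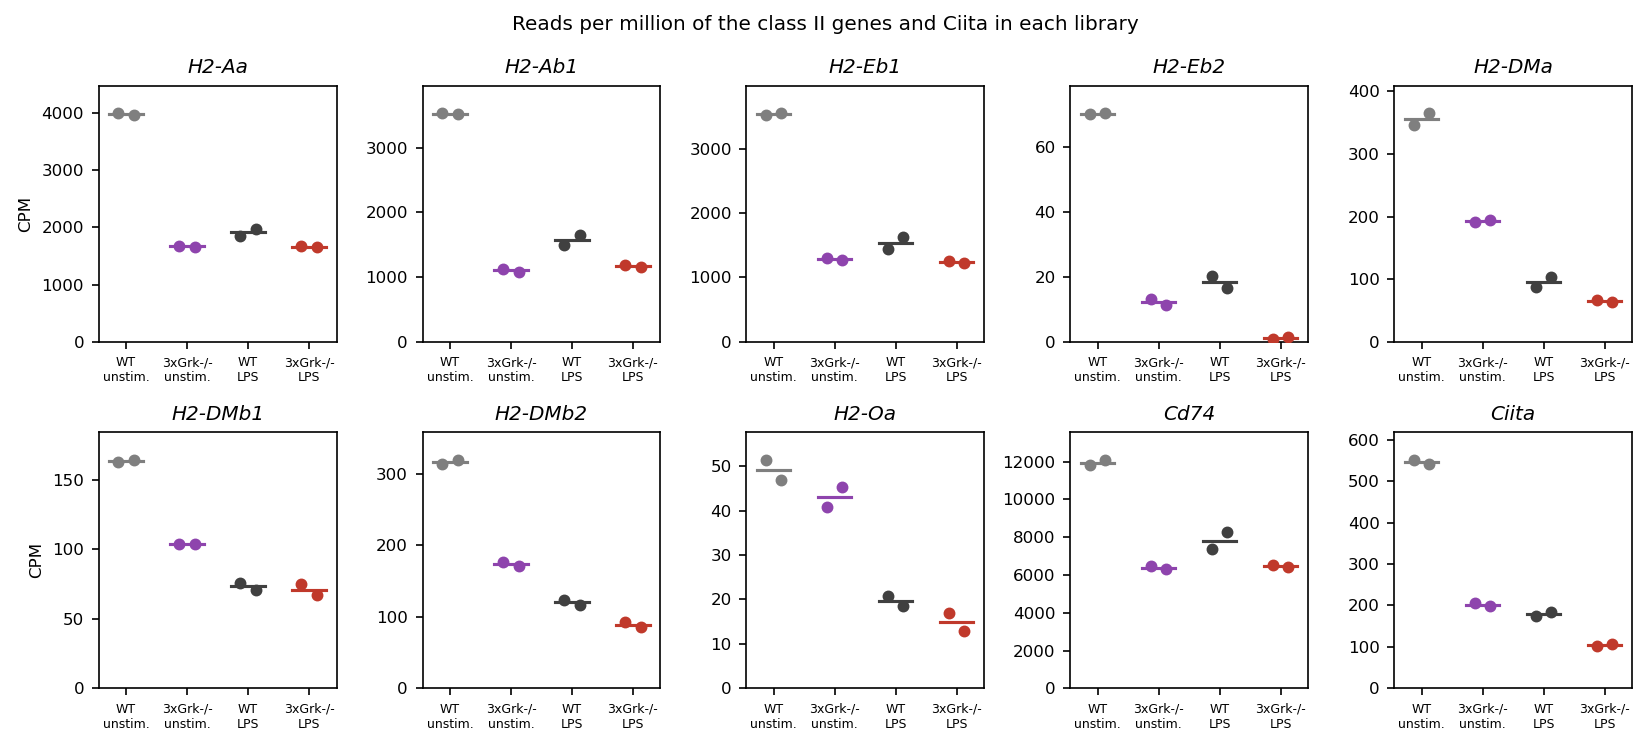
CPM (y axis from 0, a scale of its own in each panel) of the 10 genes in each library of the 4 groups. Points are the 2 libraries of a group and lines their mean, and the WT unstimulated libraries are the highest in every panel.

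In unstimulated BMDCs, 9 of the 10 members were lower in 3xGrk-/- cells than in WT cells and none was higher, against 22.7% of the 12000 genes tested that were lower. The median log2 fold change of the 10 was -1.08, against -0.0017 over all genes tested. Every 3xGrk-/- library lay below every WT library for 10 of 10 members, which was also the case for 34.9% of genes tested. The largest adjusted p among the 9 was 8.98e-29, for H2-DMb1. With LPS, 8 of 10 members were lower in 3xGrk-/- cells and none was higher, against 24% of 11830 genes, and their median was -0.41, against -0.0066 over all genes. In the LPS-stimulated libraries 9 of 10 members had no overlap between genotypes, against 36.6% of genes. As edgeR's common coefficient of variation, the spread among libraries within groups was 0.0306 unstimulated and 0.0573 with LPS. With this coefficient fixed at 0.1 for every gene, 9 members were called in the unstimulated comparison and 5 with LPS, namely H2-Ab1, H2-Eb2, H2-DMa, H2-DMb2 and Ciita, against 2905 of 12000 and 4358 of 11830 genes called in either direction. With 0.4, H2-Eb2 was the single member called in either.

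**Figure D2:**
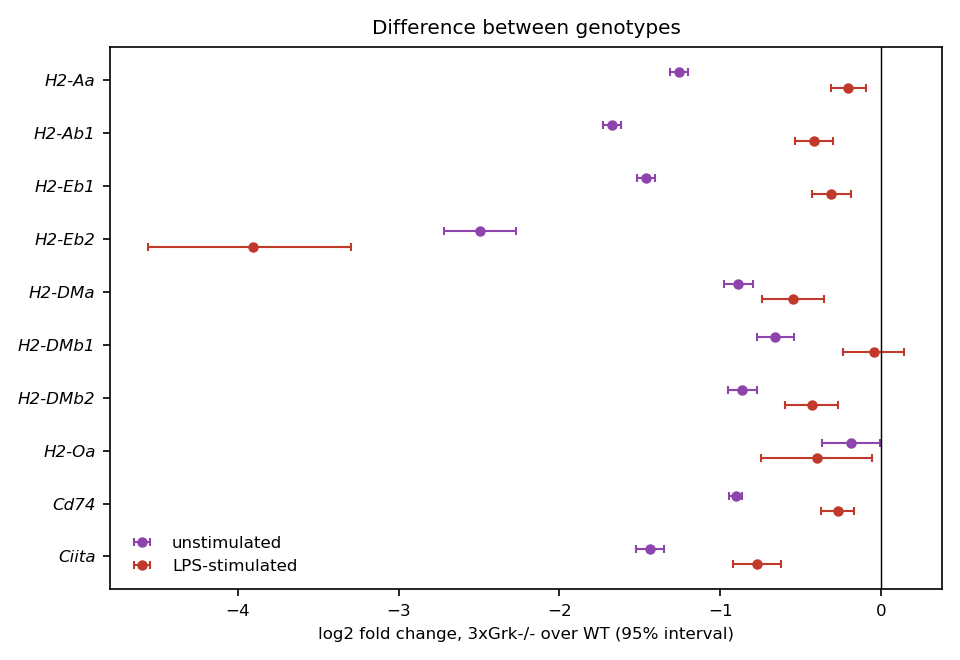
Log2 fold change of each member between 3xGrk-/- and WT BMDCs (x axis), unstimulated and LPS-stimulated, with bars for the 95% interval. All points lie at or left of 0, and except for H2-Eb2 and H2-Oa the LPS-stimulated point is nearer to 0 than the unstimulated one.

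Ciita encodes the transactivator on which the other members' promoters depend. Its level was 552 and 541 CPM in WT unstimulated libraries, 205 and 198 CPM in 3xGrk-/- unstimulated libraries, 175 and 184 CPM in WT LPS-stimulated libraries, and 103 and 107 CPM in 3xGrk-/- LPS-stimulated libraries. No 2 of these 4 groups overlapped, and 3xGrk-/- cells without LPS were closer to WT cells with LPS than to WT cells without it. The log2 fold change between genotypes was -1.44 ± 0.043 unstimulated and -0.77 ± 0.072 with LPS. LPS lowered Ciita by a log2 fold change of -1.60 ± 0.054 (SE) in WT cells and of -0.94 ± 0.060 in 3xGrk-/- cells, and the response was smaller by 0.66 ± 0.081 in 3xGrk-/- cells (edgeR adjusted p = 1.60e-07).

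The genes of the classical chains were lower together, H2-Ab1 by the most, at -1.67 ± 0.029 (log2 fold change and SE) unstimulated and -0.42 ± 0.055 with LPS. H2-Ab1, the beta chain of the A molecule, had 3528 and 3524 CPM in WT unstimulated libraries, 1128 and 1082 CPM in 3xGrk-/- unstimulated, 1494 and 1644 CPM in WT LPS-stimulated, and 1191 and 1161 CPM in 3xGrk-/- LPS-stimulated libraries. Its partner alpha chain H2-Aa had 3988 and 3966, 1680 and 1651, 1851 and 1971, and 1668 and 1652 CPM in the same order of groups. H2-Eb1, the beta chain of the E molecule, had 3521 and 3546, 1299 and 1271, 1447 and 1625, and 1257 and 1224 CPM. For all 3 genes the unstimulated WT libraries stood apart, and the remaining groups lay within a narrow band of which WT LPS-stimulated libraries were the upper end.

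The 2 chains of the A molecule did not fall in proportion. For each H2-Ab1 read there were 1.13 and 1.13 H2-Aa reads in WT unstimulated libraries, 1.49 and 1.53 in 3xGrk-/- unstimulated, 1.24 and 1.20 in WT LPS-stimulated, and 1.40 and 1.42 in 3xGrk-/- LPS-stimulated libraries. Such a ratio within a library does not depend on scaling, and it was higher in both 3xGrk-/- groups than in the WT group of the same stimulation. The E alpha chain gene, which is a pseudogene in H-2b mice such as C57BL6, had 0 or 1 count in each library.

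H2-Eb2, a second beta chain gene of the E type that lies next to H2-Eb1, was the member with the largest difference between genotypes. Its counts were 366 and 501 in WT unstimulated, 89 and 66 in 3xGrk-/- unstimulated, 111 and 107 in WT LPS-stimulated, and 4 and 10 in 3xGrk-/- LPS-stimulated libraries. For 1000 H2-Eb1 reads there were 19.9 and 19.8 H2-Eb2 reads in WT unstimulated libraries, 10.2 and 9.02 in 3xGrk-/- unstimulated, 13.9 and 10.2 in WT LPS-stimulated, and 0.579 and 1.32 in 3xGrk-/- LPS-stimulated libraries. The ratio was therefore lowest where LPS and the deletion came together. With LPS the genotype difference of H2-Eb2 rested on few reads in the 3xGrk-/- libraries (log2 fold change -3.90, 95% interval -4.56 to -3.30).

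Cd74 was the most abundant member in every group. It had 11815 and 12090 CPM in WT unstimulated, 6471 and 6314 CPM in 3xGrk-/- unstimulated, 7366 and 8273 CPM in WT LPS-stimulated, and 6536 and 6432 CPM in 3xGrk-/- LPS-stimulated libraries. The pattern over the groups was that of H2-Ab1 with a smaller range. Its log2 fold change between genotypes was -0.90 ± 0.020 unstimulated and -0.27 ± 0.049 with LPS (edgeR adjusted p = 9.64e-05 for the latter). For each H2-Ab1 read there were 3.35 and 3.43 Cd74 reads in WT unstimulated libraries and 5.73 and 5.84 in 3xGrk-/- unstimulated libraries, and 4.93 to 5.54 in the 4 LPS-stimulated libraries.

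The genes of the peptide editor H2-DM were lower in unstimulated 3xGrk-/- cells by -0.66 to -0.89 on the log2 scale, against -1.26 to -1.67 for H2-Aa, H2-Ab1 and H2-Eb1. H2-DMa, the alpha chain, had 346 and 365 CPM in WT unstimulated, 191 and 194 CPM in 3xGrk-/- unstimulated, 86.7 and 104 CPM in WT LPS-stimulated, and 66.7 and 63.9 CPM in 3xGrk-/- LPS-stimulated libraries. H2-DMb2, the more abundant of the beta chain genes, had 314 and 320, 177 and 172, 124 and 117, and 93.1 and 85.3 CPM in that order. H2-DMb1, the other beta chain gene, had 163 and 164, 104 and 103, 75.8 and 70.7, and 74.7 and 67.3 CPM. With LPS the genotypes stayed apart for H2-DMa and H2-DMb2, whereas for H2-DMb1 they overlapped and the difference was -0.05 (95% interval -0.24 to 0.14, edgeR adjusted p = 0.705).

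H2-DMb1 and H2-DMb2 share 22.7% of the 50-base stretches of H2-DMb1, so that reads could be split between them in the counting, and both values carry that uncertainty. For each H2-DMb1 read there were 1.93 and 1.95 H2-DMb2 reads in WT unstimulated, 1.70 and 1.66 in 3xGrk-/- unstimulated, 1.63 and 1.65 in WT LPS-stimulated, and 1.25 and 1.27 in 3xGrk-/- LPS-stimulated libraries. The ratio was thus lower in 3xGrk-/- than in WT cells and lower with LPS than without. H2-DMa overlaps Brd2 on the opposite strand over 360 of its 3448 exonic bases, and Ciita overlaps Dexi over 329 of 9535. The strand setting of the counting is not given in the sources used here, so that reads of these stretches could not be assigned with certainty.

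H2-Oa, the alpha chain of the H2-DM inhibitor H2-O, was the member with the smallest genotype difference in unstimulated cells. Its level was 51.4 and 46.8 CPM in WT unstimulated, 40.7 and 45.3 CPM in 3xGrk-/- unstimulated, 20.7 and 18.4 CPM in WT LPS-stimulated, and 16.9 and 12.8 CPM in 3xGrk-/- LPS-stimulated libraries. The genotypes did not overlap at either stimulation, and neither difference passed the test, a call that turns on the setting with LPS. The log2 fold change was -0.19 ± 0.093 unstimulated (edgeR adjusted p = 0.0880) and -0.40 ± 0.16 with LPS (adjusted p = 0.0508). H2-Oa in stimulated cells was called under the replicate block (edgeR adjusted p = 0.0421), in the fit of all 8 libraries (0.0334), with library size as the only scaling (0.0169) and without WT replicate 2 (0.0392) or 3xGrk-/- replicate 1 (0.0163) of the LPS-stimulated libraries. Without 3xGrk-/- replicate 2 it was -0.19 (adjusted p = 0.499). Unstimulated it was called with library size as the only scaling (0.00915). H2-Ob, the beta chain of H2-O and not one of the 10 genes, had 41.8 and 39.2 CPM in WT unstimulated, 8.68 and 12.3 CPM in 3xGrk-/- unstimulated, 17.2 and 19.5 CPM in WT LPS-stimulated, and 5.45 and 4.7 CPM in 3xGrk-/- LPS-stimulated libraries. It was lower in 3xGrk-/- cells by a log2 fold change of -1.96 ± 0.14 unstimulated and -1.86 ± 0.20 with LPS. The 95% interval unstimulated was -2.23 to -1.69 for H2-Ob and -0.37 to -0.0057 for H2-Oa.

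LPS lowered all 10 members in WT BMDCs, against 30.8% of the 12541 genes tested that fell and 29.5% that rose. Their median log2 fold change was -1.26, against -0.015 over all genes. In 3xGrk-/- BMDCs, 6 members fell and none rose, against 27.4% of genes that fell and 28% that rose, with a median of -0.74 against -0.0072 over all genes. LPS-stimulated and unstimulated libraries are in separate tables of raw counts, so that a difference between the tables' sequencing runs, if there was one, cannot be told apart from LPS.

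The members differed in their LPS response in 3xGrk-/- cells, where the classical chains and Cd74 did not pass the test. H2-Aa had a log2 fold change of -1.06 in WT cells and of -0.0045 (95% interval -0.087 to 0.078) in 3xGrk-/- cells. For H2-Ab1 the values were -1.17 in WT and 0.09 (-0.0027 to 0.18) in 3xGrk-/- cells, for H2-Eb1 -1.20 and -0.05 (-0.15 to 0.043), and for Cd74 -0.61 and 0.02 (-0.059 to 0.10). None of these 4 values in 3xGrk-/- cells passed in the fit of all 8 libraries with scaling by trimmed means (TMM), although H2-Ab1, at 0.09, passed without either WT LPS-stimulated library (adjusted p = 0.00836 and 0.00810), and the difference in response between the genotypes passed for all 4, at 1.05, 1.26, 1.15 and 0.63 in that order. With library size as the only scaling, where the median of all genes moved to -0.23, all 4 were called lower in 3xGrk-/- cells, with H2-Ab1 at -0.13 and Cd74 at -0.20, which is above that median.

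The H2-DM and H2-O genes, H2-Eb2 and Ciita fell with LPS in both genotypes. H2-DMa had a log2 fold change of -1.90 in WT and -1.56 in 3xGrk-/- cells, the largest fall among the DM genes in both. H2-DMb2 had -1.40 and -0.97, H2-DMb1 -1.16 and -0.55, and H2-Oa -1.33 and -1.54 in WT and 3xGrk-/- cells. H2-Eb2 had -1.94 in WT and -3.35 in 3xGrk-/- cells. The number of H2-DMa reads for 1000 H2-Ab1 reads was 98.1 and 103 in WT unstimulated, 169 and 179 in 3xGrk-/- unstimulated, 58.0 and 63.0 in WT LPS-stimulated, and 56.0 and 55.0 in 3xGrk-/- LPS-stimulated libraries.

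**Figure D3:**
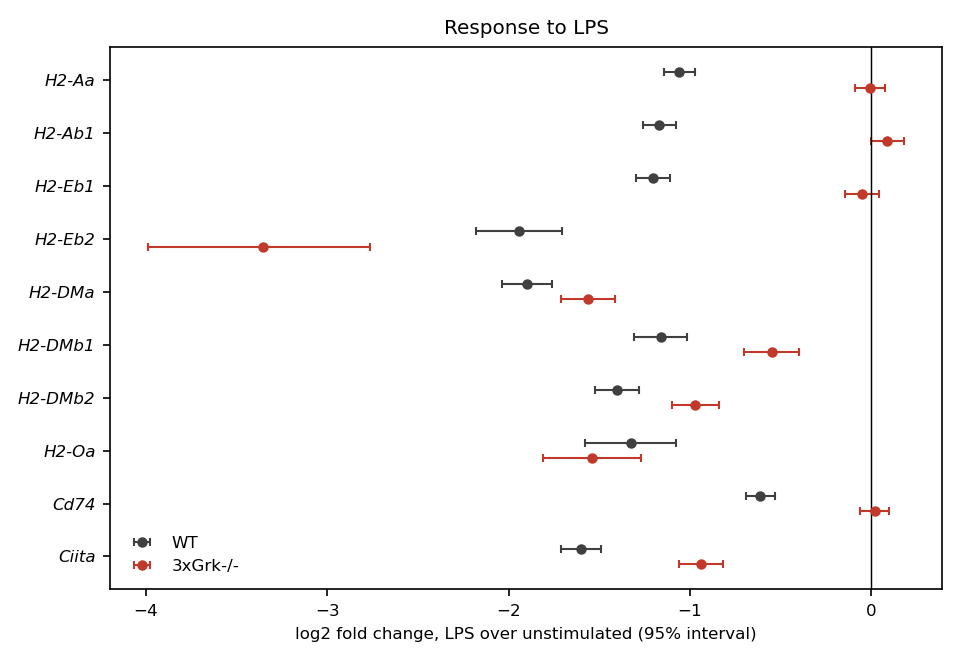
Log2 fold change of each member between LPS-stimulated and unstimulated BMDCs (x axis) in WT and 3xGrk-/- cells, with bars for the 95% interval. All WT points lie below 0, and the 3xGrk-/- points of H2-Aa, H2-Ab1, H2-Eb1 and Cd74 lie at about 0.

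The difference between the genotypes changed with stimulation for 9 of 10 members in the test of the interaction over the 8 libraries, against 32.5% of genes tested in either direction. For 8 members the genotype difference moved towards 0 with LPS, by 0.34 for H2-DMa to 1.26 for H2-Ab1 on the log2 scale. H2-Eb2 moved the other way, by -1.41 ± 0.37 (edgeR adjusted p = 0.00354), and this was -0.98 with an adjusted p of 0.0897 without 3xGrk-/- LPS-stimulated replicate 1 and -2.12 without replicate 2 of that group. H2-Oa did not pass (-0.21 ± 0.19, adjusted p = 0.429). The interaction of H2-DMa had an adjusted p of 0.00957, and it did not pass without replicate 1 of that group (0.0625) nor with DESeq2 (0.0669). The genotype difference of H2-Aa with LPS, -0.20 ± 0.051 (adjusted p = 0.00249), did not pass without replicate 1 (0.0741) or replicate 2 (0.154) of the LPS-stimulated 3xGrk-/- libraries.

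To compare members with each other, levels were set per exonic length as TPM, which scales length-corrected counts to the same sum in each library. Cd74 had the highest TPM of all genes in WT unstimulated BMDCs, at 24195 and 24711 TPM, and ranked 7 in WT LPS-stimulated and 3xGrk-/- unstimulated cells and 10 in 3xGrk-/- LPS-stimulated cells. In WT unstimulated cells H2-Eb1 (6228 and 6259 TPM), H2-Ab1 (4724 and 4710 TPM) and H2-Aa (3610 and 3583 TPM) followed. Then came H2-DMb2, H2-DMa, H2-DMb1, Ciita, H2-Oa and H2-Eb2, from 623 down to 71.0 TPM, with no overlap between neighbours in that order. In 3xGrk-/- unstimulated cells H2-Aa and H2-Ab1 overlapped between libraries, although H2-Aa was the higher in each library. H2-Oa (96.5 and 106 TPM) stood above Ciita (71.8 and 68.3 TPM) there, the reverse of WT cells. This reversal was lost with the longest transcript as the length, where Ciita had 87.0 and 83.2 TPM and H2-Oa 77.3 and 85.4 TPM, which overlap, in 3xGrk-/- unstimulated cells. In 3xGrk-/- LPS-stimulated cells the pairs H2-Ab1 and H2-Aa, H2-DMb2 and H2-DMb1, and Ciita and H2-Oa overlapped between libraries. Within each of these libraries H2-Ab1 was above H2-Aa and H2-DMb2 above H2-DMb1, whereas Ciita and H2-Oa changed order between them. With Gm42418 left out of the TPM, H2-DMb2 (154 and 130 TPM) and H2-DMb1 (128 and 106 TPM) no longer overlapped. With the longest transcript as the length, H2-Ab1 (7642 and 7618 TPM) stood above H2-Eb1 (5539 and 5566 TPM) in WT unstimulated cells and ranked 2 among the members in all 4 groups, so that the order of these genes depends on the length used.

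Over the 8 libraries, the levels of 8 of the members fell into 2 patterns, described here as correlations of log2 CPM that share libraries and groups. H2-Aa, H2-Ab1, H2-Eb1 and Cd74 had Pearson's r of 0.984 to 0.999 with each other. H2-DMa, H2-DMb1 and H2-DMb2 had 0.966 to 0.986 with each other, and H2-Oa had 0.905 to 0.952 with them. Between the 2 patterns, the H2-DM genes had 0.713 to 0.853 with H2-Aa, H2-Ab1, H2-Eb1 and Cd74, and H2-Oa had 0.511 to 0.6. H2-Eb2 was placed in neither, at values of a size like those between the patterns. It had 0.777 to 0.797 with H2-Aa, H2-Ab1, H2-Eb1 and Cd74 and 0.77 to 0.875 with the H2-DM genes. Ciita had 0.825 to 0.973 with the other 9 members, highest with H2-DMb2. Among 9384 expressed genes outside the 10, those with the highest r to H2-Ab1 were Fcgrt (0.986), Zfp282 (0.985), Tpt1-ps3 (0.984), Nav1 (0.979) and Dlgap5 (0.976), and 1.53% of these genes had r above 0.9. Those with the highest r to Ciita were Itpripl1 (0.998), Birc5, Kntc1, Kif22 and Ccnb2 (0.996 to 0.997), and 6.11% of genes had r above 0.9.

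The members' neighbours on chromosome 17 were called in both directions. Outside the 10, 23 genes within 200 kb of the region passed the filter on low counts in the fit of all 8 libraries. Of these, 22 were tested in unstimulated cells, of which 5 were lower, 8 were higher and 9 did not pass, with a median log2 fold change of 0.11. Over all genes tested, 22.7% were lower and 22.1% higher unstimulated, and 24% and 24.7% with LPS, so that the lower neighbours unstimulated were at the background share. With LPS, 4 of 23 were lower, 8 were higher and 11 did not pass, with a median of 0.02. Between the H2-DM and the classical chain genes lie Psmb9, Tap1, Psmb8 and Tap2 of the class I pathway, which supply peptides to class I molecules, and their log2 fold changes were 0.03, -0.21, 0.36 and -0.11 unstimulated and -0.16, 0.28, 0.26 and 0.48 with LPS. Of the neighbours, H2-Ob was the lowest at both stimulations. Of 11 tested genes on a list of class I genes and neighbours, LPS raised 11 in WT and 11 in 3xGrk-/- cells, against 29.5% and 28% of all genes.

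**Figure D4:**
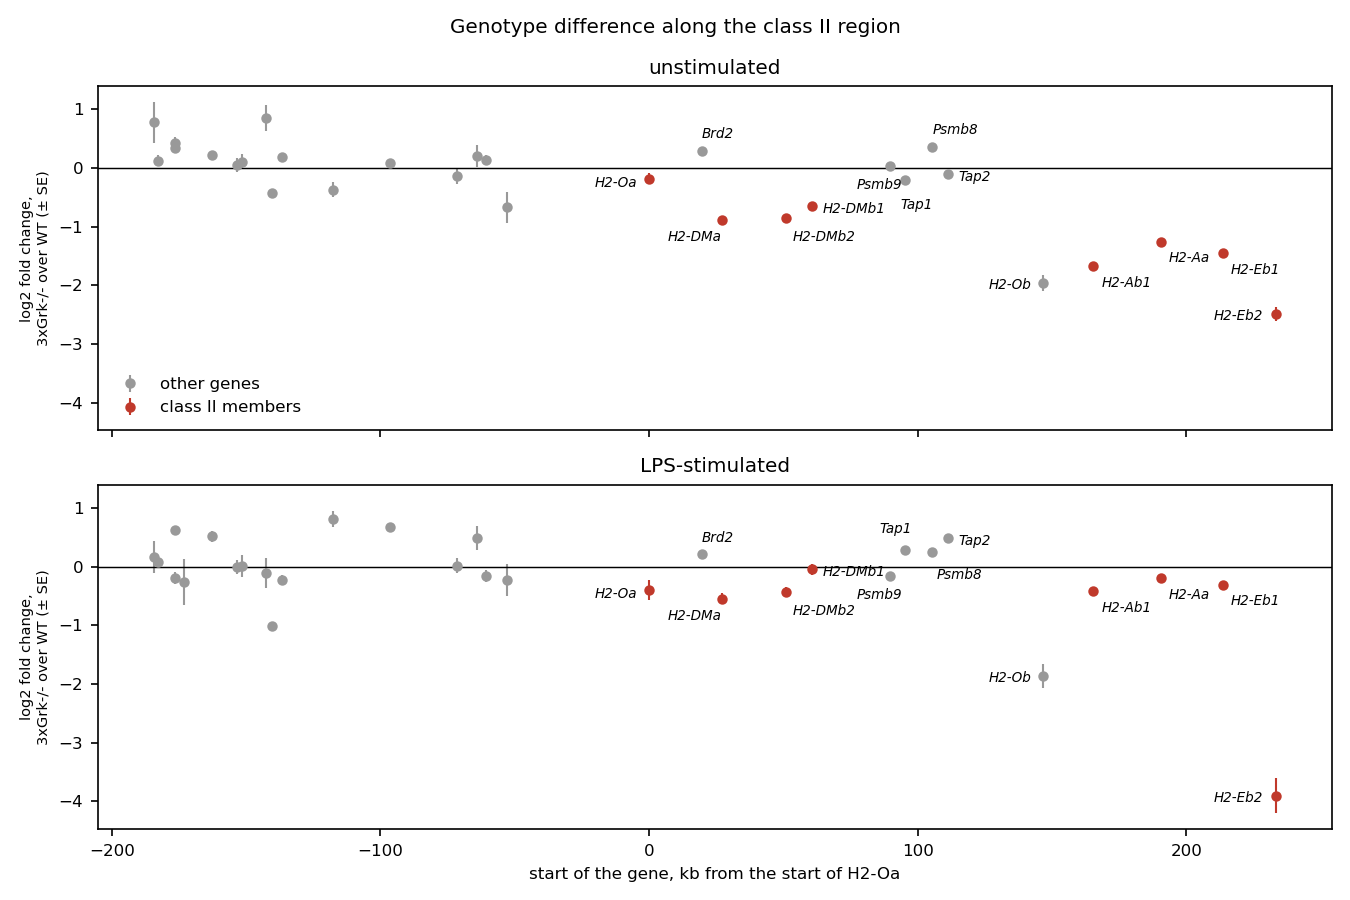
Log2 fold change between 3xGrk-/- and WT BMDCs (y axis, bars are SE) of the genes in and around the class II region, by the distance of each gene's start from the start of H2-Oa (x axis, kb). Members lie below 0 and the other genes on both sides of it, with H2-Ob at -1.96 unstimulated and -1.86 with LPS as the lowest of them.

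The proteins that bind class II promoters form the platform for CIITA. Of their 7 genes for RFX, NF-Y and CREB1, 1 was lower in unstimulated 3xGrk-/- cells (Nfyb, -0.39 ± 0.13) and none was higher, and with LPS 2 were higher (Rfxap, 0.61 ± 0.19, and Rfxank, 0.42 ± 0.15) and none was lower. Over all genes 22.7% were lower and 22.1% higher unstimulated, and 24% and 24.7% with LPS. Rfx5, the DNA-binding RFX subunit, had -0.09 (95% interval -0.29 to 0.10) unstimulated and -0.09 (-0.30 to 0.12) with LPS. None of the 7 passed the test of the interaction, against 32.5% of all genes. Of 4 coactivator genes, 2 were higher unstimulated (Ep300, 0.13, and Smarca4, 0.14) and 1 with LPS (Kat2b, 0.34).

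Genes known to act on Ciita were called in both directions. Of 14 such genes, 13 were tested in unstimulated cells, of which 3 were lower and 7 were higher in 3xGrk-/- cells, and with LPS 4 of 14 were lower and 7 were higher. The shares over all genes were 22.7% lower and 22.1% higher unstimulated, and 24% and 24.7% with LPS, so that the lower counts were near the background. Irf4, a transcription factor of dendritic cells and B cells, was lower at both stimulations, with 416 and 405 CPM in WT unstimulated, 267 and 281 CPM in 3xGrk-/- unstimulated, 374 and 367 CPM in WT LPS-stimulated, and 157 and 153 CPM in 3xGrk-/- LPS-stimulated libraries. Irf8, a related factor, was higher by 0.82 unstimulated and lower by -0.59 with LPS, and this interaction passed (-1.41 ± 0.067). Spi1, the gene of PU.1, had 0.00080 unstimulated, which did not pass, and was higher by 0.57 with LPS. Prdm1, the gene of the repressor BLIMP-1, was higher by 0.90 and 0.51, and Socs1, an inhibitor of interferon signaling, by 0.93 and 0.42. Il10 had 0 counts in unstimulated libraries, 2 and 1 in WT LPS-stimulated libraries and 21 and 25 in 3xGrk-/- LPS-stimulated libraries.

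Endosomal proteins cut the invariant chain and antigens, or hold such proteases in check. Of 8 such genes, 6 were higher and 2 were lower in unstimulated 3xGrk-/- cells, against 22.1% of all genes that were higher, and with LPS 6 were higher, 1 was lower and 1 did not pass, against 24.7% that were higher. The 2 lower genes were Ctsh, a cathepsin (-0.34 ± 0.039), which did not pass with LPS (0.14 ± 0.059), and Cst3. Ctss, the main protease for the invariant chain in dendritic cells, had 689 and 688 CPM in WT unstimulated, 1254 and 1249 CPM in 3xGrk-/- unstimulated, 1008 and 998 CPM in WT LPS-stimulated, and 2621 and 2713 CPM in 3xGrk-/- LPS-stimulated libraries. Ctsl, another lysosomal protease, was higher by 4.03 unstimulated and 5.98 with LPS. Cst3, an inhibitor of such proteases, was lower by -0.86 unstimulated and -0.61 with LPS.

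Marchf1, the ubiquitin ligase that sends surface class II molecules for degradation, fell with LPS in both genotypes, and by less in 3xGrk-/- cells (log2 fold change -0.32 ± 0.077, edgeR adjusted p = 0.000914) than in WT cells (-2.53 ± 0.11). It had 73.4 and 86.2 CPM in WT unstimulated, 108 and 105 CPM in 3xGrk-/- unstimulated, 14.7 and 13.2 CPM in WT LPS-stimulated, and 83.8 and 87.2 CPM in 3xGrk-/- LPS-stimulated libraries. WT LPS-stimulated libraries were thus below all others, and the interaction was 2.21 ± 0.14 (edgeR adjusted p = 3.76e-13). Cd83, which opposes that ligase, had 1137 and 1173 CPM in WT LPS-stimulated libraries and 463 and 454 CPM in 3xGrk-/- LPS-stimulated libraries, with a log2 fold change of -0.35 unstimulated and -1.33 with LPS. Marchf8, the third gene of the turnover list, was lower by -0.31 ± 0.081 unstimulated and higher by 0.31 with LPS. Of the 3 genes, 2 were lower and 1 was higher unstimulated, and 1 was lower and 2 were higher with LPS. Among 5 genes for the ligand and partners of CD74, 1 was lower and 2 were higher unstimulated, and 1 was lower and 4 were higher with LPS, of which Mif, a ligand of CD74, was higher by 0.40 unstimulated and 1.96 with LPS. Over all genes 22.7% were lower and 22.1% higher unstimulated, and 24% and 24.7% with LPS.

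**Figure D5:**
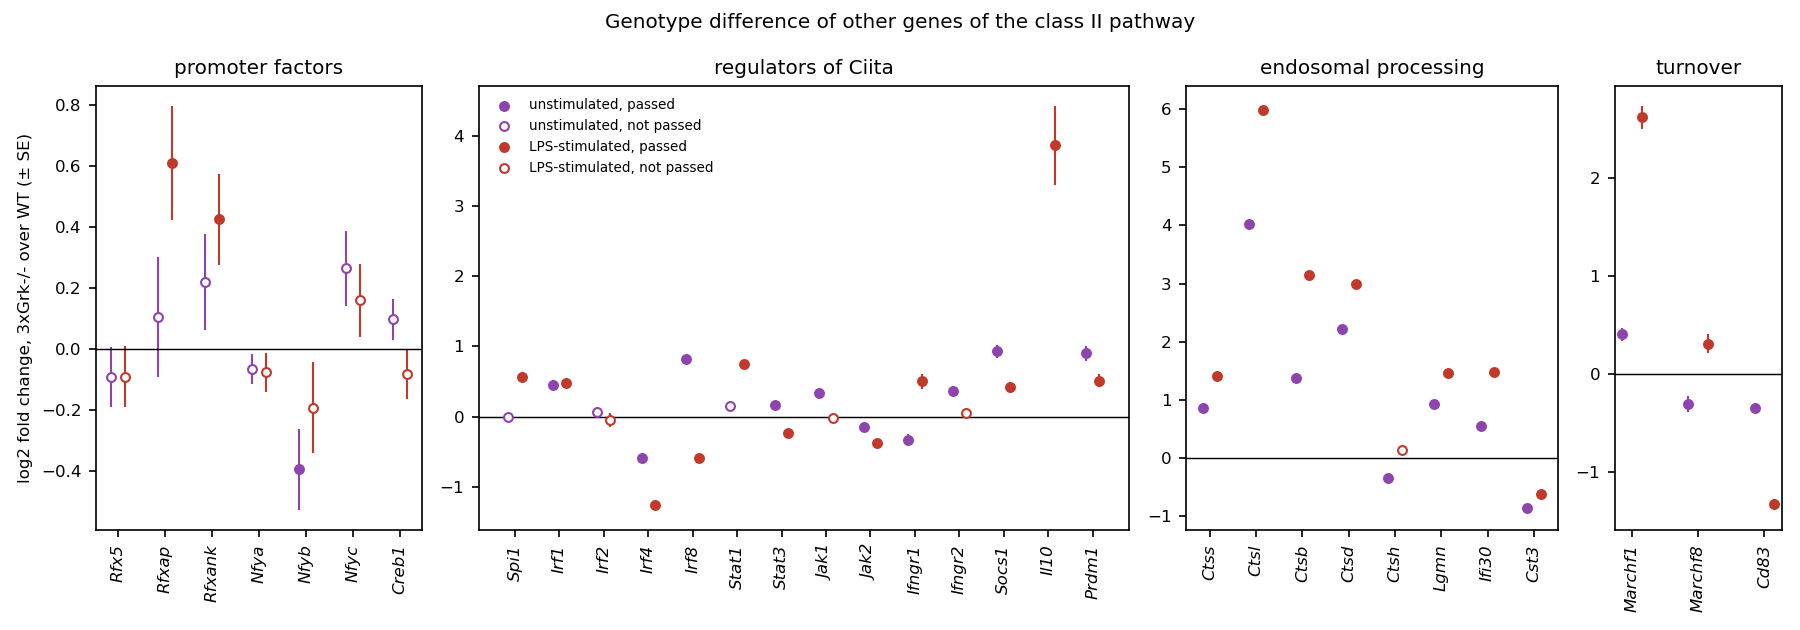
Log2 fold change between 3xGrk-/- and WT BMDCs (y axis, bars are SE, a scale of its own in each panel) of promoter-binding factors, regulators of Ciita, endosomal processing genes and genes of class II turnover, unstimulated and LPS-stimulated. Filled points passed the test and open points did not, with Marchf1 at 0.41 and 2.62 and Irf4 at -0.59 and -1.26.

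Other measurements moved with the groups. The targeted genes were lower in 3xGrk-/- cells, by -1.11 and -1.89 for Grk2, -0.36 and -0.42 for Grk3 and -1.19 and -1.54 for Grk6 without and with LPS, and reads still fell on each gene. Counts cover the whole gene, so that they do not measure the deleted part by itself. Over all genes 22.7% were lower and 22.1% higher in unstimulated 3xGrk-/- cells, and 24% and 24.7% with LPS, for the list counts that follow. Of 8 genes of conventional dendritic cells, 4 were lower and 3 were higher in unstimulated 3xGrk-/- cells, and 6 were lower and 2 were higher with LPS, with a summed level of 3570 to 3605 CPM in WT unstimulated, 3266 in both 3xGrk-/- unstimulated, 5408 to 5673 in WT LPS-stimulated and 4076 to 4185 CPM in 3xGrk-/- LPS-stimulated libraries. Of 10 macrophage genes, 4 were lower and 5 were higher unstimulated and 10 of 10 were higher with LPS, and their summed level was 1018 to 1045, 1500 to 1555, 407 to 413 and 2787 to 2847 CPM in that order. The 4 eosinophil genes summed to 903 to 959, 53.5 to 57.0, 894 to 964 and 36.2 to 42.2 CPM. Of the genes that mark B cells, which also carry class II molecules, Cd79a, Cd79b, Ms4a1, Pax5, Ebf1 and Blk had 0 to 3 counts in each library and were not tested. Cd22 was higher in 3xGrk-/- cells at both stimulations, with 2 and 3 counts in WT unstimulated, 44 and 38 in 3xGrk-/- unstimulated, 1 and 0 in WT LPS-stimulated, and 54 and 50 in 3xGrk-/- LPS-stimulated libraries. Ighm was lower in unstimulated 3xGrk-/- cells by -1.08 ± 0.28 (log2 fold change) and did not pass with LPS (-0.18 ± 0.38). Neutrophil genes (6) summed to 580 to 611, 431 to 445, 267 to 315 and 142 to 155 CPM, and genes of mast cells and basophils (4) and of T and NK cells (6) to at most 48.1 and 5.73 CPM. Of 5 genes of plasmacytoid dendritic cells, Siglech, Ccr9 and Ly6d had 0 to 6 counts in each library and were not tested. Bst2 was lower by -0.34 in unstimulated 3xGrk-/- cells and higher by 1.25 with LPS, and Tcf4 was lower by -0.46 and -0.55. The part of cell composition in the members' levels was not tested, and in bulk cultures fewer cells of a type and less RNA per cell cannot be told apart.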

How the data were processed

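RNA of BMDCs had been sequenced as 8 libraries after TruSeq Stranded mRNA preparation. The authors aligned reads to GRCm38 with STAR 2.7.3a and counted them per gene with featureCounts 2.0.0 within snakePipes 2.1.0, and deposited raw counts per gene in 2 tables, of unstimulated and of LPS-stimulated libraries. The annotation release, strand setting and treatment of reads with several alignments are not given in the sources used here. Libraries were assigned to groups by their labels. Of 47937 identifiers, 47224 were matched to names, and those without a name held 0.0847% of counts. Counts were scaled by TMM, filtered by filterByExpr and tested with the quasi-likelihood test of edgeR 4.0.16 (R 4.3.3, limma 3.58.1), with p-values adjusted by Benjamini-Hochberg over every gene tested. Genotypes were compared within each table (4 libraries), and LPS responses and the interaction were fitted over 8 libraries. An exact permutation test of 2 against 2 libraries cannot go below p = 0.333 and was not used. The fits were tested on simulated counts. TPM used exonic lengths of GENCODE genes, and correlations used log2 of CPM plus 0.5. Named genes are the 10 members, genes of fixed pathway and marker lists, and the 5 genes outside the members with the highest correlation to H2-Ab1 and to Ciita among genes with a mean log2 CPM above 3. Neighbours, and genes whose values illustrate a list, were named after their values were seen. The members and lists were chosen with earlier results of these data known. Promoter windows were taken from RefSeq (GRCm38.p6) for 7 of the 10 members. Replicate libraries differed from each other, with a mean chi-square per gene of 1.59 to 9.02 and a median of 0.526 to 0.874, and each was counted as 1 sample. Over the members, the median was 0.746 in WT and 1.20 in 3xGrk-/- unstimulated libraries. It was 5.05 in WT and 3.80 in 3xGrk-/- LPS-stimulated libraries. Alternatives were DESeq2 1.42.0, other scaling, filters and spreads, a replicate block, and leaving out each library.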

Additional observations from a re-analysis of the deposited data

Results flagged for a closer look

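The genotype difference with LPS minus that without LPS passed the test of the difference (edgeR, adjusted p below 0.05) for 9 members, against 32.5% of all genes. On the log2 scale it was 1.05 for H2-Aa, 1.26 for H2-Ab1, 1.15 for H2-Eb1, 0.34 for H2-DMa, 0.61 for H2-DMb1, 0.43 for H2-DMb2, 0.63 for Cd74 and 0.66 for Ciita. For H2-Eb2 it was -1.41, in the opposite direction, on 4 and 10 counts in the 3xGrk-/- LPS-stimulated libraries. Without replicate 1 of that group 7 members passed, H2-Eb2 (-0.98, adjusted p = 0.0897) and H2-DMa (0.31, adjusted p = 0.0625) being lost, and without replicate 2 H2-Eb2 was at -2.12. DESeq2 called 8, without H2-DMa (adjusted p = 0.0669).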

How the results depend on the processing

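The numbers of members called (9 unstimulated, 8 with LPS, 9 for the interaction, 10 for LPS in WT and 6 for LPS in 3xGrk-/- cells) stayed within 1 member of these under DESeq2, RLE scaling, both filters, and library sizes without the members or without the 20 most abundant genes. The same held for the interaction under upper-quartile scaling, and for the 2 genotype comparisons in 1 fit of all 8 libraries, the comparisons for which these were run. With at least 10 counts asked in every library, the numbers were 9, 7, 8, 9 and 5. Genes called were then 4813 of 10961, 5068 of 10700, and 3711, 6404 and 5885 of 10372. H2-Eb2, with 4 counts in a 3xGrk-/- LPS-stimulated library, was not tested under this filter wherever that library entered. With the coefficient of variation fixed at 0.4, the numbers were 1, 1, 0, 2 and 1, and with it fixed at 0.1 they were 9, 5, 7, 10 and 6. Asking also for a change of 1 or more (log2) left 5, 1, 4, 9 and 3 members in the 5 comparisons, against 1444 of 12000, 1984 of 11830, 1375 of 12541, 2700 of 12541 and 2373 of 12541 genes. With library size as the only scaling, 10 members were called for LPS in 3xGrk-/- cells, against 7445 of 12541 genes. H2-Ab1 there turned to -0.13 (edgeR adjusted p = 0.0175) and Cd74 to -0.20 (adjusted p = 7.58e-05), as the median of all genes moved to -0.23. H2-Oa with LPS was called when scaled by library size alone (adjusted p = 0.0169), in the fit of all 8 libraries (0.0334), and without WT replicate 2 (0.0392) or 3xGrk-/- replicate 1 (0.0163) of the LPS-stimulated libraries, and H2-Oa unstimulated was called when scaled by library size alone (0.00915). Leaving out a single library leaves 1 library in its group, so that the spread rests on the remaining groups. The number of members called then changed with LPS, for the interaction and for LPS in 3xGrk-/- cells. It did not change unstimulated or for LPS in WT cells. H2-Ab1 rose with LPS in 3xGrk-/- cells by 0.09 without WT LPS-stimulated replicate 1 (adjusted p = 0.00836) or 2 (0.00810).

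Replicate numbers did not pair the samples, as the correlation of same-numbered libraries' deviations was -0.062 to 0.068 over 9384 genes. With the replicate block, 9, 9, 9, 10 and 6 members were called, H2-Oa with LPS being added (-0.40, adjusted p = 0.0421), and the all-gene counts were 5292 unstimulated and 5654 with LPS, against 5369 and 5754 without it.

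Over all genes, DESeq2 called 2828 unstimulated, 3665 with LPS and 2457 for the interaction, against 5369, 5754 and 4070 in edgeR. With the coefficient fixed at 0.1, 2905, 4358 and 2161 genes were called unstimulated, with LPS and for the interaction, and at 0.4 it was 448, 782, 72, 1110 and 850 in the 5 comparisons. The share of counts on the members, with the 20 most abundant other genes left out, was 2.96% in WT unstimulated, 1.30% in 3xGrk-/- unstimulated, 1.43% in WT LPS-stimulated and 1.11% in 3xGrk-/- LPS-stimulated libraries. With the longest transcript as the length, 3 of 10 members kept their TPM rank in all 4 groups.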
